A study of Macaca fascicularis with 18 samples.

Results

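The transcriptomes of the cerebral cortex and the liver of the cynomolgus monkey (Macaca fascicularis) were compared in 11 of the 18 RNA-Seq libraries of the study. The comparison held 6 cortex libraries and 5 liver libraries from the same 2 females of about 10 years, here called A1 and A2. The paper names no treatment other than anaesthesia with ketamine and midazolam and euthanasia with pentobarbital before the tissues were taken. Each animal gave 3 samples per tissue, so that the cortex is represented by 3 samples of A1 and 3 of A2, and the liver by 3 samples of A1 and 2 of A2. The sixth liver library, liver A2-1 (a sample is named by tissue, animal and sample number), is labelled liver but its values were not liver-like, and it was left out. The 6 kidney cortex libraries were not compared and serve only as a reference for single sets of genes. Samples of one animal are not independent, and each tissue therefore has 2 animals as its units.

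Expression was measured as RPKM, the reads on a gene divided by the length of the gene and by the reads of the library. Of the 29324 Ensembl genes listed, 14268 were tested because 3 or more of the 11 samples had a value of 1 RPKM or above. Of the genes left out, 7238 had a value above 0 in at least 1 of the 11 samples and 7818 were at 0 in all of them. At the edge of this filter, the third highest value was 1 RPKM for the lowest gene that was kept and 0.999 RPKM for the highest gene that was left out. The filter kept 3714 genes with fewer than 3 liver samples at 1 RPKM and 981 genes with fewer than 3 such cortex samples, and genes of these kinds were likely to differ for that reason alone. None of the identifiers was found in the table of gene names used here (0 of 29324). The genes are therefore described by their levels, and the tissue labels were not checked against marker genes.

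The cerebral cortex is built from many kinds of cells. Excitatory and inhibitory neurons send and receive signals at synapses, astrocytes supply and buffer them, oligodendrocytes wrap their axons in myelin and microglia are the resident immune cells. The liver consists mostly of hepatocytes, which make albumin, clotting factors, complement and apolipoproteins for the blood, and which carry out the urea cycle, bile acid synthesis and much of drug metabolism. Secreted plasma proteins are made in large amounts from a small set of genes, whereas the functions of the cortex are shared among many cell types. In bulk tissue, fewer cells of a type and less RNA per cell cannot be told apart.

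Among the 11 samples, those with the same tissue label resembled each other more than those with different labels. Pearson's correlation of log2(RPKM + 1), taken over the 14268 genes and given as a description because genes are not replicates, was 0.982 to 0.996 in the 10 pairs of samples of one tissue and animal and 0.969 to 0.978 in the 15 pairs of one tissue from different animals. Between cortex and liver it was 0.310 to 0.343, whether the samples came from the same animal or not. For liver A2-1 the median was 0.663 with the 5 liver samples and 0.515 with the cortex samples, and its 10 highest genes took 62.3% of the summed RPKM. Relative depths, estimated from the steps of low values and set to a median of 1, were 0.323 in cortex A2-2, 2.18 in liver A1-1 and between 0.880 and 1.09 in the other 9 samples.

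In the liver, few genes held most of the signal. The 10 highest genes of a sample took 28.2%, 26.7% and 27.6% of the summed RPKM in liver A1 and 23.4% and 23.1% in liver A2. In the cortex they took 13.8%, 13.9% and 13.7% in A1 and 15.5%, 15.95% and 13.1% in A2. No cortex sample reached the lowest liver sample, and among the liver samples both of A2 lay below all 3 of A1. The mean over samples was 25.8% ± 2.40 in liver (SD, n = 5) and 14.3% ± 1.13 in cortex (SD, n = 6). The 100 highest genes took 55.8% ± 1.36 in liver and 29.5% ± 1.06 in cortex. To reach 50% of the summed RPKM, between 56 and 74 genes were needed in a liver sample and between 519 and 618 in a cortex sample. On the means per animal, the difference in the share of the 10 highest genes was -11.05 percentage points for cortex minus liver (exact permutation test, two-sided, p = 0.333, the smallest p that 2 animals per tissue allow). With liver A2-1 included it was -17.6 percentage points.

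**Figure D1:**
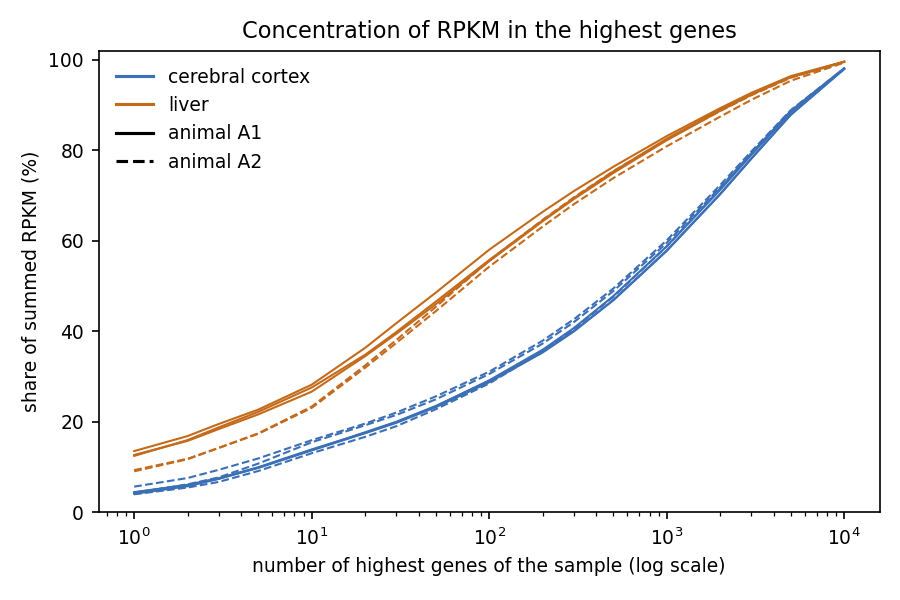
Share of the summed RPKM (y axis, percent) held by the highest genes of each sample, against their number (x axis, log scale). Each line is 1 sample, blue for cortex and orange for liver, solid for A1 and dashed for A2. The 5 liver lines lie above the 6 cortex lines over the whole range, with 54.3% to 58.0% against 28.5% to 31.1% at 100 genes.

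The number of genes above a given level also differed. Between 13054 and 13246 genes had at least 1 RPKM in a cortex sample (median 13122) and between 10287 and 11092 in a liver sample (median 10588). At 10 RPKM the ranges were 6653 to 6955 in cortex and 3833 to 4157 in liver. At 100 RPKM they were 682 to 740 and 529 to 579. At 1000 RPKM the order was the opposite, with 24 to 30 genes in cortex and 71 to 77 in liver. At none of these 4 levels did the samples of the 2 tissues overlap. Within 1 to 10 RPKM the samples did overlap, with 6177 to 6487 genes in a cortex sample (mean 6350) and 6454 to 6935 in a liver sample (mean 6650), so that the mean was higher in liver. The number of genes with at least 1 RPKM was 2498 higher in cortex on the means per animal (exact permutation test, two-sided, p = 0.333, the smallest p possible here), and 2365 higher with liver A2-1 included. Scaling the samples, as described next, reduced this difference to 1082 genes, since it raised the liver values and lowered the cortex values.

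RPKM values are divided by the reads of the library, so that a few genes with very high values can lower the values of all others. The comparison was therefore made on the deposited values and on values divided by a median-of-ratios factor, which brings the typical ratio among the 14321 genes above 0 in all 11 samples to 1. The factors were 1.38 to 1.48 in cortex and 0.621 to 0.752 in liver. In the deposited values, the median log2 difference of cortex minus liver over the 14268 genes was 0.95, and after scaling it was 0.14. With samples scaled to equal sums without the 100 highest genes it was 0.60. The cause of the shift was not tested. Differences of single genes should be read against these medians.

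In the deposited values, 8660 genes differed between the tissues, which is 60.7% of the genes tested (limma on log2(RPKM + 1), averaged per animal, adjusted p below 0.05 and an absolute log2 difference of at least 1, n = 2 animals). Of these, 6879 genes were higher in cortex (48.2% of the genes tested) and 1781 were higher in liver (12.5%). After scaling, 7203 genes differed (50.5%), with 3977 higher in cortex (27.9%) and 3226 higher in liver (22.6%). The share of the called genes that were higher in cortex thus went from 79.4% to 55.2% with the scaling. Quantile normalisation gave 7140 genes, 3724 of them higher in cortex and 3416 in liver, and under it 153 of the 8660 genes had the opposite sign. Scaling to equal sums without the 100 highest genes gave 7731 genes, of which 70.3% were higher in cortex. With liver A2-1 included, 8258 genes differed in the deposited values and 6754 after scaling. The balance between the tissues therefore depends on the scale, and the number of genes that differ depends on it less. The fold threshold set most of these counts, since 8743 genes had an absolute log2 difference of at least 1 in the deposited values and 8660 of them passed the test.

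The calls on the 2 scales were also set side by side. On both scales 3977 genes were called higher in cortex and 1781 higher in liver, together 5758 genes or 40.4% of those tested. Another 2902 genes (20.3%) were called higher in cortex in the deposited values and not called after scaling. A further 1445 genes (10.1%) were called higher in liver after scaling and not called in the deposited values. On neither scale were 4163 genes (29.2%) called. For 3867 genes (27.1%) the 95% confidence interval of the scaled difference lay within -1 and 1, and in the deposited values this held for 2653 genes (18.6%). These limits are on the log2(RPKM + 1) scale, and for genes near or below 1 RPKM they allow a larger fold in RPKM than 2.

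**Figure D2:**
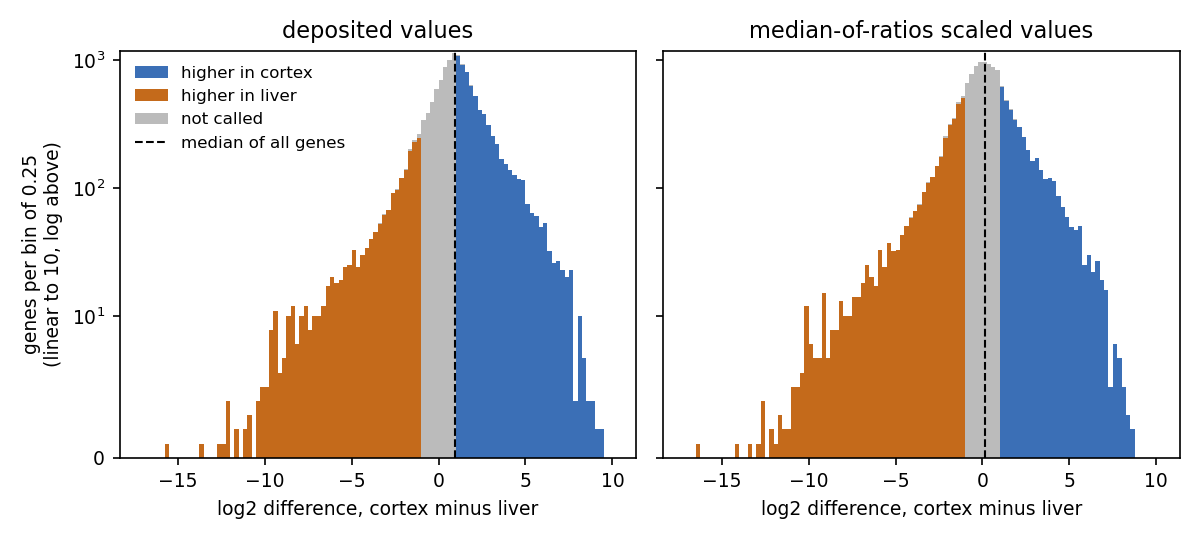
Number of genes (y axis, linear up to 10 and logarithmic above) per bin of 0.25 of the log2 difference of cortex minus liver (x axis), for deposited values on the left and scaled values on the right. Blue bars are genes called higher in cortex, orange bars genes called higher in liver, grey bars genes not called, and the dashed line is the median of all genes, 0.95 and 0.14. The tail towards liver is longer than the tail towards cortex on both scales.

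All 6 cortex samples lay above all 5 liver samples for 64.0% of the genes in the deposited values, and all liver samples lay above all cortex samples for 17.3%. After scaling these shares were 41.2% and 33.7%. The spread within tissues was small beside these differences. In the deposited values, the median SD between samples of one animal, on the log2 scale, was 0.13 in cortex and 0.11 in liver. The median absolute difference between the means of A1 and A2 was 0.17 in cortex and 0.19 in liver. After scaling the median SD was 0.119 in cortex and 0.125 in liver, and the difference between the animals 0.16 and 0.21.

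The size of the differences was not the same in the 2 directions. In the deposited values the genes called higher in cortex outnumbered those called higher in liver at a difference of at least 4-fold, with 3414 against 972, and at least 16-fold, with 987 against 399. At 64-fold the numbers were 237 and 192. At 256-fold liver was ahead with 92 genes against 29, and at 1024-fold there were 24 genes higher in liver and 0 higher in cortex. After scaling, liver was ahead already at 64-fold with 249 against 144 genes, and had 121 against 10 at 256-fold and 46 against 0 at 1024-fold. Genes higher in cortex were thus in the majority on both scales up to 16-fold, by a smaller margin after scaling, and genes higher in liver were in the majority on both scales from 256-fold. At 64-fold the majority changed with the scale. The largest differences were a log2 value of 9.32 towards cortex and 15.65 towards liver in the deposited values. These folds are on the log2(RPKM + 1) scale, which understates the change of genes that are near 0 in one tissue, and a gene can reach 1024-fold only with at least about 1000 RPKM, a level that more genes had in liver.

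**Figure D3:**
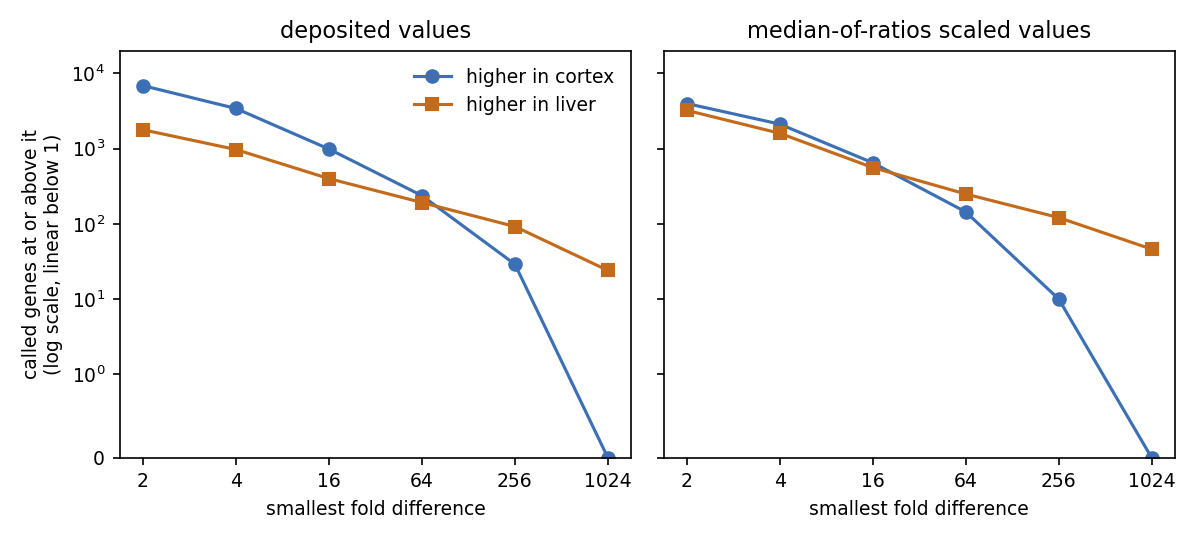
Number of called genes (y axis, log scale above 1) at or above a given fold difference (x axis, 2 to 1024) for deposited values on the left and scaled values on the right, blue circles for genes higher in cortex and orange squares for genes higher in liver. The lines cross above 64-fold in the deposited values and between 16-fold and 64-fold after scaling.

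The balance also changed with the level of the gene, taken as its mean over both tissues on the log2 scale. In the deposited values, 50.8% of the 8152 genes at 1 to 10 RPKM were called higher in cortex and 11.2% higher in liver. Of the 4585 genes at 10 to 100 RPKM, 46.8% and 15.3% were. Among the 291 genes at 100 to 1000 RPKM the shares were close, 26.8% and 21.6%. After scaling, 32.02% of the genes at 1 to 10 RPKM were called higher in cortex and 19.8% higher in liver, at 10 to 100 RPKM it was 21.3% and 29.6% of 4647 genes, and at 100 to 1000 RPKM 12.3% and 50.0% of 300 genes. On both scales the share of genes higher in liver was larger at 100 to 1000 RPKM than at 1 to 10 RPKM. The class at 1000 RPKM and above held 18 genes on either scale, with 1 higher in cortex and 2 higher in liver (11.1%) in the deposited values and 0 and 4 after scaling.

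The most abundant genes of the 2 tissues were mostly different ones. Of the 10 genes with the highest mean RPKM in cortex and the 10 in liver, 3 were the same, of the 100 highest in each 19 were the same (19.0%), and of the 1000 highest 330 (33.0%). Among the 10 highest genes of liver, 7 were called higher in liver on both scales, and 4 had a mean below 1 RPKM in cortex. Among the 10 highest genes of cortex, 0 were called in either direction on either scale, and 0 had a mean below 1 RPKM in liver. Genes picked for a high level in a tissue tend to be higher in that tissue, and the counts are to be read with this and with the shares of all genes tested, 48.2% higher in cortex and 12.5% higher in liver in the deposited values and 27.9% and 22.6% after scaling. With the 100 highest genes of each tissue, 84 of those of liver were called higher in liver and 0 higher in cortex in the deposited values, and 39 had a mean below 1 RPKM in cortex. Of the 100 highest of cortex, 71 were called higher in cortex and 3 higher in liver, and 12 had a mean below 1 RPKM in liver. After scaling, 87 of the 100 liver genes and 56 of the 100 cortex genes were called higher in their own tissue, and 8 of the 100 cortex genes were called higher in liver.

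The genes called in the same direction on both scales also show how much of the RNA signal went with the difference. The 1781 genes called higher in liver took 62.7% to 66.6% of the summed RPKM of the liver samples and 2.94% to 3.27% of that of the cortex samples. The 3977 genes called higher in cortex took 40.5% to 42.7% in the cortex samples and 2.12% to 2.56% in the liver samples. The other genes tested held 54.1% to 56.0% in cortex and 31.01% to 34.6% in liver. These shares describe genes that were selected for this difference and are no test of it.

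A stricter view, which does not rest on a fold change, counted genes that were on in one tissue and off in the other. In cortex, 890 genes had at least 1 RPKM in all 6 samples and less than 0.1 RPKM in all 5 liver samples. In liver, 135 genes had at least 1 RPKM in all 5 samples and less than 0.1 RPKM in all 6 cortex samples. The cortex genes were more numerous, with a median of 9.97 RPKM, 443 genes at 10 RPKM or more, 50 genes at 100 RPKM or more and a highest mean of 594 RPKM. The liver genes were fewer and higher, with a median of 40.3 RPKM, 49 genes at 100 RPKM or more, 12 at 1000 RPKM or more and a highest mean of 5298 RPKM. Together the 890 genes took 5.02% to 5.47% of the summed RPKM of a cortex sample, and the 135 genes took 8.33% to 9.41% of that of a liver sample. On scaled values the same rule gave 678 genes for cortex and 185 for liver. In the deposited values, the count for cortex fell to 247 and that for liver to 31 when off was defined as exactly 0, a value that depends on depth. With liver A2-1 included, which could only keep or lower the counts, they were 517 and 27.

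In the kidney cortex, which had no part in the choice of these genes, 317 of the 890 cortex genes (35.6%) were below 0.1 RPKM in all 6 samples and 96 (10.8%) were at 1 RPKM or more in all 6. Of the 135 liver genes, 43 (31.9%) were below 0.1 RPKM in all kidney samples and 26 (19.3%) were at 1 RPKM or more in all of them. Of all 14268 genes tested, 529 (3.71%) were below 0.1 RPKM in all kidney samples and 11443 (80.2%) were at 1 RPKM or more in all of them. The 890 and 135 genes were chosen to be off in one tissue, which the genes tested as a whole were not, and the difference between these shares was not tested.

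The rule was also applied to one animal and its genes were measured in the other. Applied to A1 alone, the same rule gave 1240 genes for cortex, and in A2 all cortex samples lay above all liver samples for 1232 of them (99.4%) and the difference was at least 2-fold for 93.8%. For the 250 liver genes chosen in A1, the liver samples of A2 lay above its cortex samples for 244 (97.6%), with at least a 2-fold difference for 89.2%. Chosen in A2 and measured in A1, 1037 of 1040 cortex genes (99.7%) and 166 of 167 liver genes (99.4%) did not overlap in the same direction. The full rule was met again by 71.8% of the cortex genes and 54.0% of the liver genes chosen in A1, and by 85.6% and 80.8% of those chosen in A2. Over all 14268 genes tested, the samples of A2 did not overlap for 68.7% towards cortex and 22.5% towards liver, with at least a 2-fold difference for 46.7% and 13.1%. In A1 the samples did not overlap for 70.5% towards cortex and 20.8% towards liver.

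The largest differences are shown by 4 genes, 2 per direction, that were called on both scales and had no overlap between the tissues. They were selected by the size of this difference, so that their values are a description. ENSMFAG00000001652 had 2057 to 2889 RPKM in the 6 cortex samples (median 2582) and was the eleventh most abundant gene of the cortex. In the liver samples it had 3.31, 2.92 and 2.70 RPKM in A1 and 2.76 and 3.09 RPKM in A2. The mean of the cortex samples was 861 times that of the liver samples, with no sample between them, and in kidney the gene had 1.81 to 3.35 RPKM. Its log2 difference was 9.32 with an SE of 0.18 (limma, adjusted p = 6.82e-06) in the deposited values and 8.38 with an SE of 0.18 after scaling.

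ENSMFAG00000036633 was also a cortex gene, but one that varied between the animals. Its cortex values were 1177, 773 and 1640 RPKM in A1 and 267, 567 and 385 RPKM in A2. The lowest A1 sample lay above the highest A2 sample. In liver it had 0.038, 0.01 and 0.056 RPKM in A1 and 0.082 and 0.201 RPKM in A2, and in kidney 0.742 to 1.39 RPKM. The log2 difference of cortex minus liver was 9.26 with an SE of 0.51 (limma, adjusted p = 5.49e-05). It was 10.11 in A1 and 8.41 in A2, a change of -1.70 from A1 to A2 (SE 0.41, limma contrast, adjusted p = 0.0119).

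ENSMFAG00000000097 was the most abundant gene of the liver. It had 71238, 65932 and 66853 RPKM in liver A1 and 47240 and 48099 RPKM in liver A2, and on its own it made up 9.08% to 13.6% of the summed RPKM of a liver sample. In the cortex samples it had 0 to 0.213 RPKM (median 0.098), with the value of 0 in cortex A2-2, the sample of the lowest depth. In liver A2-1 it had 12.8 RPKM, and in kidney 6.96 to 7.94 RPKM in A1 and 0.528 to 0.610 RPKM in A2. Its log2 difference was -15.65 with an SE of 0.22 (limma, adjusted p = 6.74e-06), -16.26 after scaling and -13.70 with liver A2-1 included.

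ENSMFAG00000031068 was the second most abundant gene of the liver, with 14090, 16144 and 18769 RPKM in A1 and 13917 and 12372 RPKM in A2. In the cortex samples it had 0 to 0.446 RPKM (median 0.182), and in kidney 0 to 0.844 RPKM. Its values of 0 in cortex were in A1-1 and A1-2, while cortex A2-2, the sample of the lowest depth, had 0.175 RPKM. Its liver values differed between samples by less than 2-fold, while the tissues did not come near each other. The log2 difference was -13.62 with an SE of 0.19 (limma, adjusted p = 6.74e-06), -14.24 after scaling and -11.68 with liver A2-1 included, where the gene had 3.24 RPKM.

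**Figure D4:**
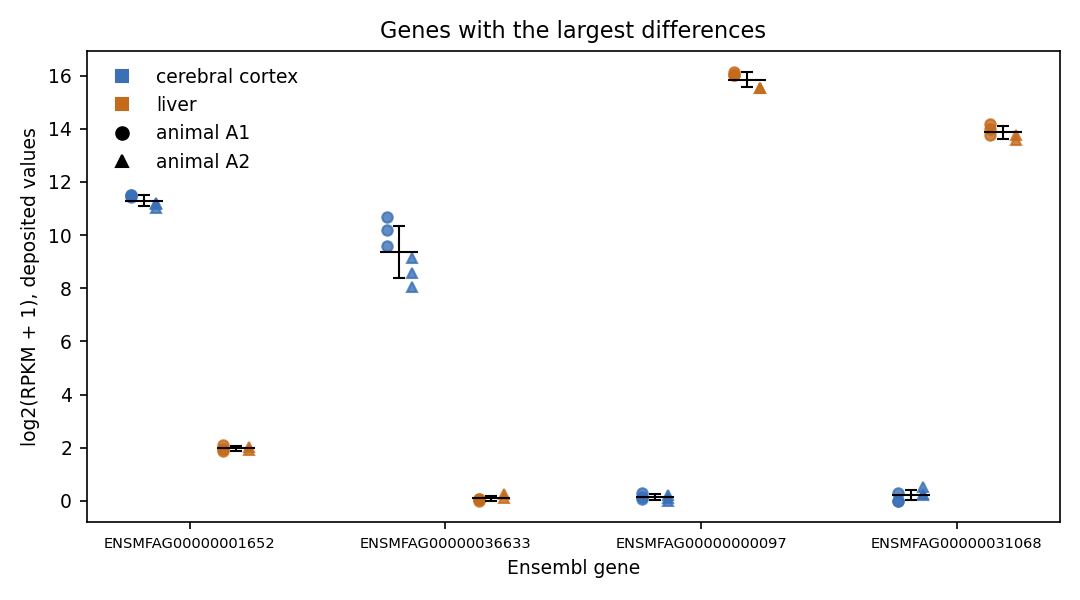
Values of the 4 genes in the 6 cortex samples (blue) and the 5 liver samples (orange) as log2(RPKM + 1) of the deposited values, circles for A1 and triangles for A2, with the mean and SD over the samples in black. For each gene the 2 tissues are separated by more than 9 log2 units of difference between their means, and in the cortex the second gene is lower in A2 than in A1.

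The 2 animals were compared for the change between the tissues, since the samples of A1 and those of A2 are separate. The median log2 difference of cortex minus liver was 1.01 in A1 and 0.89 in A2 in the deposited values, and 0.14 and 0.13 after scaling. Across the 14268 genes, Pearson's correlation of the differences in A1 and A2 was 0.973 and Spearman's 0.955, as a description over genes that share the same libraries. Of the genes, 93.7% had the same sign in both animals. Of the 9026 genes with at least a 2-fold difference in A1, 7759 (86.0%) had at least a 2-fold difference in the same direction in A2, and 10 genes had at least a 2-fold difference in opposite directions.

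The change between the tissues differed between the animals for 780 genes, or 5.47% of the genes tested (limma contrast over the 11 samples with 4 group means, adjusted p below 0.05 and an absolute log2 difference of at least 1). The error in this test is the spread between samples of one animal, so that it compares these 2 animals and not a population. The median size among these genes was 1.28 log2 units, with a median SE of 0.19, and the largest was 5.32. The difference of cortex minus liver was the greater one in A2 for 311 of them and in A1 for 469. In 479 of the 780 genes (61.4%) the animals differed more in liver than in cortex, against 53.9% of all genes tested. After scaling the count was 823 genes (5.77%), 457 with the greater value in A2 and 366 in A1, so that the balance of directions turned with the scale. The animals differed more in liver for 584 of these 823 genes, against 57.4% of all. With liver A2-1 included the count was 474 in the deposited values.

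**Figure D5:**
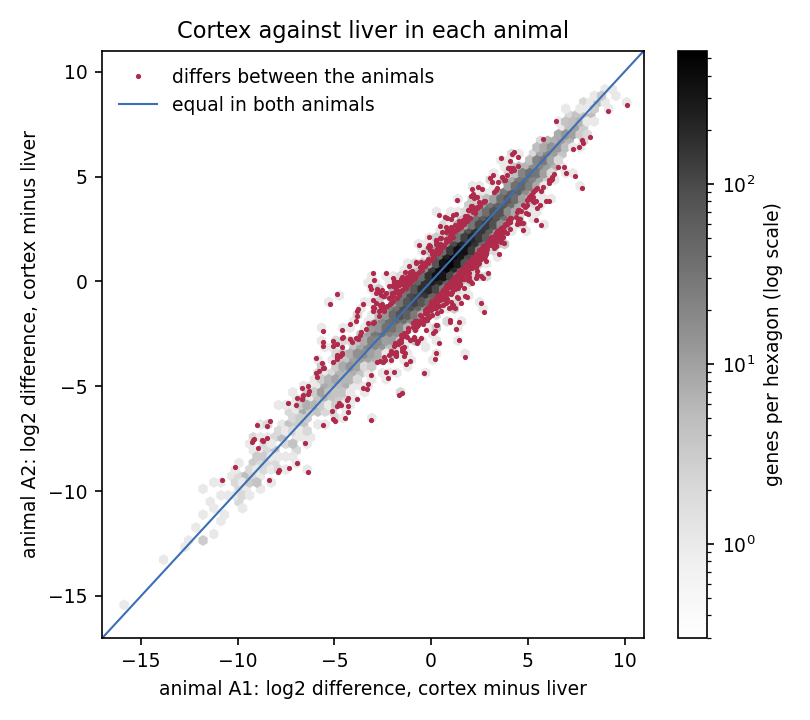
Log2 difference of cortex minus liver in A1 (x axis) and in A2 (y axis) for the 14268 genes, deposited values, with the number of genes per hexagon in grey (log scale), the line of equal differences in blue and the 780 genes that differed between the animals in red. The genes lie along the line from the liver genes at the lower left to the cortex genes at the upper right, with a correlation of 0.973.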

How the data were processed

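RNA-Seq libraries of cerebral cortex, liver and kidney cortex of 2 female cynomolgus monkeys were aligned by the authors with STAR to the Ensembl version 92 genome. The authors deposited RPKM values per Ensembl gene and sample on a linear scale, without pooling of replicates. The methods name Cufflinks for FPKM and featureCounts for read counts, without saying which one produced these RPKM values. Columns were assigned by the sample descriptions, and 0 columns were left unassigned. No pair of the 11 samples was a copy, as at most 17.2% of values were identical.

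RPKM values are not counts, so log2(RPKM + 1) was analysed with limma 3.58.1 in R 4.3.3 (intensity trend, Benjamini-Hochberg adjustment), and other measures with scipy 1.17.1 in Python 3.11.15. The 3 or 2 samples of an animal and tissue were averaged before the test, which gave 4 means. Sample numbers 1 to 3 come from the labels. Cortex and liver means pair by animal because they come from the same animal, and the differences between the animals had a correlation of 0.127 across genes between the tissues. The main fits and the permutation tests did not use this pairing, and the fit with the animal as a block is given as an alternative. The fits and the depth estimate were tested on simulated data, and the depth estimate was extended to lower values after simulated deep libraries had been missed. The simulated fit of cortex against liver recovered 147 of 200 genes changed by 2 log2 units and 189 of 200 changed by 4. Only these 200 of 14268 genes were changed, equally in both directions, a setting unlike the real comparison. Read totals of single libraries are not part of an RPKM table, so that no counting intervals were derived.

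The samples, lists and tests were chosen with earlier results of these data known. Genes were to be named by 30 gene lists, by level and by size of the difference. As the identifiers could not be paired with symbols, the rule for that case applied, the 2 genes per direction with the largest difference that were called on both scales without overlap. The gene lists were not tested. Alternatives covered pseudocount, filter, scaling, unit, replicate block, trend, thresholds, liver A2-1 and the omission of single samples.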

Additional observations from a re-analysis of the deposited data

Results flagged for a closer look

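In each tissue, 11 measures per sample (7 properties of the library and the values of the 4 genes described above) were screened for a sample that lay far from the others, its gap to the nearest sample taken as a share of the whole range. Of the 22 groups of values, 3 held such a sample, where chance gives about 1 in 20 independent groups, or 1.1 of 22. The groups are not independent, since the measures come from the same libraries and the number of genes at 0 depends on depth. The first is the number of genes at 0 in cortex A2-2, 11748, against 10411 to 10709 in the other cortex samples. The second is the relative depth of the same sample, 0.323 against 0.880 to 1.02. The third is the relative depth of liver A1-1, 2.18, where the remaining liver samples had 1 to 1.09. The number of genes with at least 1 RPKM in cortex A2-2, 13164, lay inside the range of the other cortex samples.

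The change between the tissues differed between the 2 animals for 780 genes by the test of the difference itself. Of the 4 genes described above, 2 were below an adjusted p of 0.05 in this limma contrast in the deposited values, and 3 after scaling, where ENSMFAG00000031068 had an adjusted p of 0.0207 against 0.0515 in the deposited values. For ENSMFAG00000036633 the log2 difference of cortex minus liver was changed by -1.70 in A2 relative to A1, and all 3 cortex samples of A2 lay below those of A1. For ENSMFAG00000000097 the change was 0.45 (SE 0.12, adjusted p = 0.016), with both liver samples of A2 below all 3 of A1, and it was below the size of 1 that a call needed.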

How the results depend on the processing

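Leaving out each of the 11 samples in turn gave 8559 to 8748 genes between the tissues in the deposited values and 7148 to 7293 after scaling. The difference in the share of the 10 highest genes was then -11.3 to -10.6 percentage points, and cortex had 2373 to 2622 more expressed genes. Leaving out a cortex sample or a liver A1 sample gave 698 to 873 genes that differed between the animals. The counts of genes on in one tissue were 893 to 1008 in cortex and 135 to 166 in liver. Because the rule asks for every sample, an omission could only keep or raise the counts of 890 and 135. These ranges are therefore no check of the counts. With the animal as a replicate block over the 4 means, 8737 genes passed in the deposited values and 7260 after scaling, with a replicate block of the animal and the sample number over all 11 samples 8806 and 7327, and with the sample number as a block 793 genes differed between the animals, so that the block changed no count by over 1.5 times. The 4 genes described kept their direction and their call under all 25 alternatives each, but the size of 3 of them moved with the pseudocount, since their values in one tissue are far below 1 RPKM. With pseudocounts of 0.1 and 0.01, the log2 difference of ENSMFAG00000036633 was 11.88 and 13.12, that of ENSMFAG00000000097 -18.17 and -19.40 and that of ENSMFAG00000031068 -15.97 and -17.38, while that of ENSMFAG00000001652 was 9.70 and 9.74. The following settings moved a count by over 1.5 times or a difference by more than the spread between samples. Of the genes that differed in the deposited values, 6879 were higher in cortex and 1781 in liver, against 3977 and 3226 after median-of-ratios scaling and 3724 and 3416 after quantile normalisation. A threshold of 2 on the log2 difference gave 4386 and 3716 genes. For the difference between the animals, a pseudocount of 0.1 gave 1455 genes, a filter of 5 RPKM in 5 samples 475 and the inclusion of liver A2-1 474. For genes on in one tissue, off below 1 RPKM gave 2476 in cortex and 594 in liver, on at 10 RPKM gave 366 and 81, off at 0 gave 247 and 31, and liver A2-1 included gave 517 and 27. The 100 highest genes gave a difference of -26.2 points, and the 10 highest with liver A2-1 gave -17.6. Expressed genes differed by 2176 at 0.1 RPKM, 2824 at 10 RPKM and 1082 after scaling. Fewer genes or stricter limits are part of these settings, and for the pseudocount and liver A2-1 the cause was not tested. With 2 animals per tissue, the exact permutation tests could not reach 0.05.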

Other observations

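Genes that are high in one tissue were present at traces in the other, and the traces were not the same in all samples. Genes were chosen in one animal, at 100 RPKM or more in all samples of one tissue and below 1 RPKM in all samples of the other, and measured in the other animal. The 125 liver genes chosen in A1 summed to 19.9, 107 and 29.7 RPKM in cortex A2-1, A2-2 and A2-3, which is 0.0115%, 0.062% and 0.0172% of their level in liver A2. In cortex A2-2, 17 of the 125 genes reached 1 RPKM, against 2 and 5 in the other A2 cortex samples, and the 3 highest genes made up 54.6% of the sum. The relative depth of cortex A2-2 was 0.323, against 0.901 in A2-1 and 1.02 in A2-3. At a lower depth a single read adds more RPKM, and the part of depth in these counts was not tested. The 108 liver genes chosen in A2 summed to 12.6, 12.5 and 14.3 RPKM in the cortex samples of A1. In the other direction, the 134 cortex genes chosen in A1 summed to 30.4 RPKM in liver A2-2 and 51.6 RPKM in liver A2-3, or 0.105% and 0.179% of their level in cortex A2. The 119 cortex genes chosen in A2 summed to 19.2, 19.6 and 20.3 RPKM in liver A1, or 0.0739% to 0.0783%. The lists of the 2 animals differ, so that their sums are not compared with each other.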
